A study of Homo sapiens with 9 samples.

Results

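The forkhead genes outside the FOXA subfamily were examined in RNA-sequencing counts of cells labelled MDA-MB-231. MDA-MB-231 is an established human line of triple-negative, claudin-low breast cancer. The members were 35 listed genes from *FOXB1* to *FOXS1*, matched by gene symbol among 60708 annotated genes, and every one of the 35 was found. The 9 libraries came from untreated cells and comprised 3 libraries of wild-type cells (WT) and 3 each of CS16 and CS19. CS16 and CS19 are labelled as *SNAI1* knockouts (*SNAI1*-KO) and are each a single clone, obtained with a pool of Cas9 guides against the first exons of *SNAI1*, a repair template and puromycin selection. The WT cells are described without editing or cloning, so that differences from editing, selection or cloning cannot be told apart from those due to the targeted gene. The same holds for any other difference in origin between the lines, whose marker values are given below. All cells were grown in the same serum-containing medium. The labels do not say whether replicates were separate cultures, so the p-values measure only the spread between these libraries, which may be technical.

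Forkhead factors bind DNA through a winged-helix domain, and their subfamilies differ mainly in where they are expressed and in what controls them. FOXB, FOXC, FOXD, FOXF, FOXL and FOXQ factors pattern mesenchyme, kidney, neural crest and epithelia in the embryo, whereas FOXO factors are held out of the nucleus by AKT and act on stress response, cell cycle exit and metabolism. FOXM1 drives genes of late cell cycle, FOXP factors mostly repress transcription as dimers, and FOXK factors are broadly expressed and associate with the BAP1 deubiquitinase. In breast cancer, *FOXC1* and *FOXQ1* are known as genes of basal-like and mesenchymal cells.

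Before the members, the labels were set beside the data. *SNAI1*, which encodes the targeted repressor, had 16, 38 and 21 counts in the WT libraries, 26, 40 and 49 in CS16 and 57, 94 and 94 in CS19, so that it was not lower in the libraries labelled *SNAI1*-KO (log2 fold change 0.89, edgeR adjusted p = 0.0838). These gene-level counts do not show whether the transcripts carried the edit. Of 12 markers of MDA-MB-231, 12 were lower in the libraries labelled *SNAI1*-KO, with a summed level of 8457 to 9527 CPM (counts scaled to a common library size) in WT, 571 to 592 in CS16 and 535 to 575 in CS19. *CD44*, which defines the line, had 12765, 13853 and 11142 counts in WT, none in CS16, and 0, 2 and 0 in CS19. The 9p21 genes *CDKN2A*, *CDKN2B* and *MTAP*, which MDA-MB-231 is known to lack, had 0 counts in every WT library and a summed level of 169 to 175 CPM in CS16 and 164 to 182 CPM in CS19. The libraries are therefore called throughout by their labels, and every direction below compares libraries so labelled. The libraries held 19527195 to 28627777 counted read pairs, and a floor of 3 counts corresponded to 0.0982 to 0.171 CPM. WT-2 stood apart within its group. Its chi-square over genes, per degree of freedom, was 221 to WT-1 and 271 to WT-3, whereas WT-1 and WT-3 gave 16.9. Values that rest on WT-2 are given with and without it.

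Most of the developmental forkhead genes were higher in the libraries labelled *SNAI1*-KO, several of them from no or almost no counts in WT, while *FOXQ1* and *FOXP4* were far lower. The comparison asks which of these regulators differ between the clones labelled *SNAI1*-KO and the wild-type cells. Of the 35 members, 28 had enough counts to be tested in *SNAI1*-KO against WT, and 7 did not (*FOXE3*, *FOXH1*, *FOXI1*, *FOXJ1*, *FOXL2*, *FOXN1* and *FOXS1*). Of those tested, 13 were called higher, with an adjusted p below 0.05 and a log2 fold change of 2 or more in edgeR's quasi-likelihood test, whereas 12.6% of all 19631 genes tested were called higher. The 13 were *FOXB1*, *FOXC1*, *FOXC2*, *FOXD1*, *FOXD2*, *FOXD3*, *FOXE1*, *FOXF1*, *FOXL1*, *FOXN4*, *FOXO1*, *FOXO4* and *FOXP2*. Another 2 were called lower, *FOXP4* and *FOXQ1*, beside 14.3% of all genes. Without the fold cut-off, 16 members were higher (31.1% of all genes) and 8 were lower (32.6% of all genes). The median log2 fold change of the 28 members was 1.37, beside -0.004 over all genes tested. *FOXB1*, *FOXD1* and *FOXN4* had no count in WT, and with these genes at their lower bounds, all of which lie above the median, it was 1.37 by construction. Members that had no counts in WT could pass the filter on low counts only through the clones. The same holds for *FOXC2*, *FOXD2*, *FOXD3*, *FOXE1*, *FOXF1* and *FOXL1*, which had few counts in WT. The counts and the median over tested members are therefore a description. In bulk RNA, fewer cells that express a gene cannot be told apart from less RNA per cell.

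**Figure D1:**
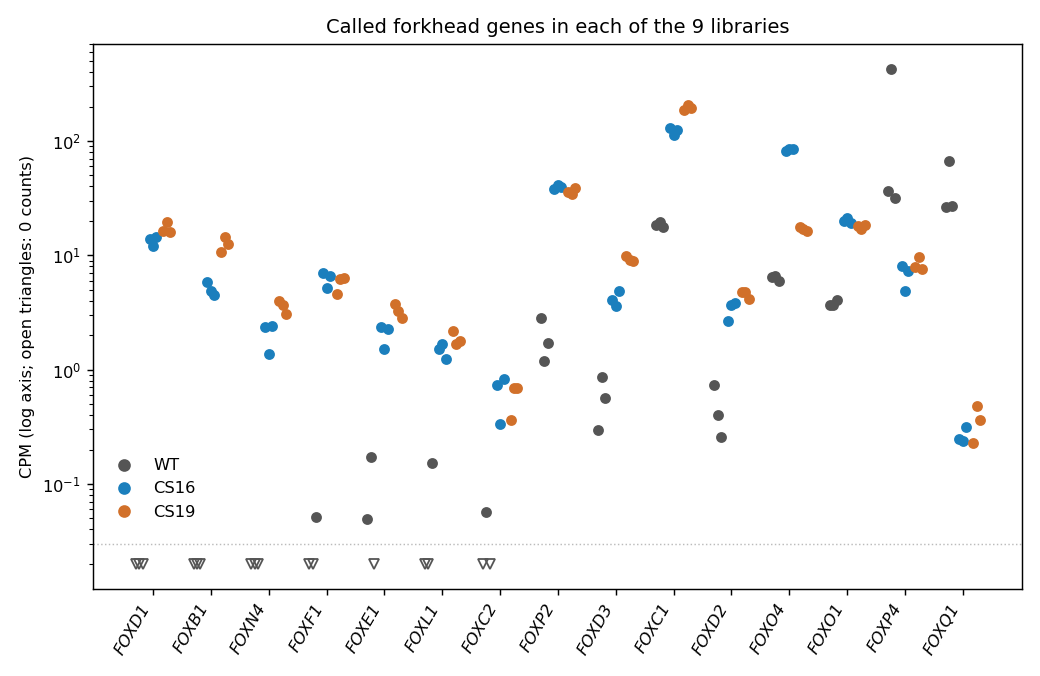
CPM (log axis) of the 15 forkhead genes called in *SNAI1*-KO against WT, with 1 point for each library and open triangles below the dotted line for libraries with 0 counts. The 13 genes on the left lie higher in all 6 libraries labelled *SNAI1*-KO than in the 3 WT libraries, and *FOXP4* and *FOXQ1* on the right lie lower. WT-2 is the uppermost WT point of *FOXP4* and of *FOXQ1*.

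Both clones were also compared with WT separately. These comparisons share the 3 WT libraries, so the values are given side by side and their likeness is not a result. In CS16 against WT, 26 members were tested, 12 were called higher beside 11.8% of all genes, and 2 were called lower beside 15.3%. In CS19 against WT, 26 members were tested, 11 were called higher beside 12.0% of all genes, and 2 were called lower beside 14.4%. *FOXC2* was called in the pooled comparison but did not pass the filter on low counts in either separate one, and *FOXO4* was called in CS16 but fell short of the fold cut-off in CS19.

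**Figure D2:**
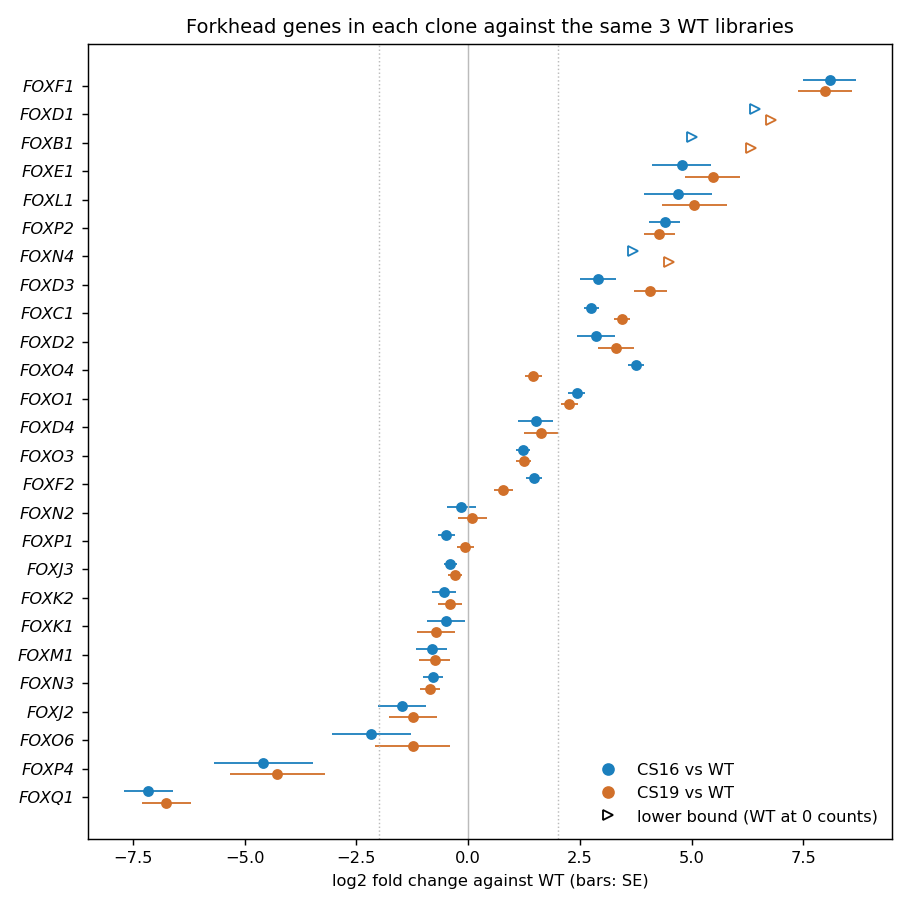
Log2 fold change of the 26 forkhead genes tested in CS16 against WT (blue) and in CS19 against WT (orange), with standard errors as bars and dotted lines at the fold cut-off. Open triangles are lower bounds for *FOXB1*, *FOXD1* and *FOXN4*, which had 0 counts in WT. *FOXO4* is the gene whose points lie farthest apart, at 3.75 in CS16 and 1.46 in CS19.

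Among the 12 members that pattern mesenchyme, kidney, neural crest and epithelium, 11 were tested, 8 were called higher (12.6% of all genes) and 1 was called lower (14.3% of all genes). *FOXB1*, *FOXC2*, *FOXD1*, *FOXF1* and *FOXL1* had at most 3 counts in WT and passed the filter on low counts through the clones. *FOXD2* and *FOXD3*, with 5 to 15 and 6 to 15 counts in WT, also needed the clones to pass it. Of the 8 called higher, only *FOXC1* had enough counts in WT alone, so their number is a description. The first group of them lies at chromosome 6p25, where *FOXQ1*, *FOXF2* and *FOXC1* follow each other on the plus strand with 74817 and 214311 bases between them. *FOXQ1* (chr6:1312098-1314758, GRCh38) is known in hair shaft differentiation and is high in several carcinomas. *FOXF2* (chr6:1389576-1395603) acts in mesenchyme of the gut and palate and in brain pericytes, and *FOXC1* (chr6:1609915-1613897) in the anterior eye, the meninges and mesoderm. Their promoters are shown because these neighbours moved in opposite directions. Each run covers 250 bases before to 50 bases after the RefSeq start (GRCh38.p14, plus strand), at chr6:1311848-1312147, chr6:1389326-1389625 and chr6:1609665-1609964, in lower case with any searched motif in capitals.
FOXQ1: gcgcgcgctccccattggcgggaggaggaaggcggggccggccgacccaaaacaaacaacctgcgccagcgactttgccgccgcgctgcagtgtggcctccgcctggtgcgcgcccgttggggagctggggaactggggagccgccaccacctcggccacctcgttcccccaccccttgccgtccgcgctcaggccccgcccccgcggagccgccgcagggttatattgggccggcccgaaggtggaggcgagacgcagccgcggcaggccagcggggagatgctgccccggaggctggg
FOXF2: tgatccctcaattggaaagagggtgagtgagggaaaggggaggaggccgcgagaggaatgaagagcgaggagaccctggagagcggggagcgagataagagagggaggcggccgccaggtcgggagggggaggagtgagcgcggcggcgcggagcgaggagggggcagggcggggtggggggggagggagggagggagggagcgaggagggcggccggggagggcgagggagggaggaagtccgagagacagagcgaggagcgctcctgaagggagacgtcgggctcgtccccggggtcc
FOXC1: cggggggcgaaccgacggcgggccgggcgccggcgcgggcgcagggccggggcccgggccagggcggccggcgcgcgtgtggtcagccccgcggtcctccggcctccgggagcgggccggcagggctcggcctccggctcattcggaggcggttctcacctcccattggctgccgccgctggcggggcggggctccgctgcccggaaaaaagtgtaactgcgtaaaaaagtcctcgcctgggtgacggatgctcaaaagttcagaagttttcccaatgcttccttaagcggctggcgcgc
None of the 3 windows held a searched motif, namely the E-box CACCTG or CAGGTG that SNAI factors bind, the forkhead core GTAAACA or its reverse TGTTTAC, or the cell cycle homology letters TTTGAA or TTCAAA. Their G and C content was 74.7%, 71% and 72.7%.

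*FOXQ1* had 533, 1163 and 527 counts in WT, 5, 5 and 8 in CS16, and 5, 11 and 11 in CS19. Every library labelled *SNAI1*-KO was close to the floor, and WT-2 was the highest. *FOXQ1* was lower by 6.96 on the log2 scale (SE 0.35, edgeR adjusted p = 1.54e-08), which is 128-fold in mean CPM, and the log2 fold change was -6.38 without WT-2. *FOXC1* showed the opposite picture, with 372, 343 and 342 counts in WT, 2641, 2387 and 3126 in CS16, and 4142, 4783 and 5898 in CS19. The groups did not overlap, and CS19 lay above CS16. In CPM, *FOXC1* averaged 18.5 ± 1.01 over WT, 123 ± 7.93 over CS16 and 196 ± 9.97 over CS19 (SD, n = 3), and the log2 fold change against WT was 2.76 in CS16 and 3.44 in CS19. *FOXCUT*, a non-coding gene 2561 bases from *FOXC1*, rose as well, from 35, 40 and 28 counts in WT to between 173 and 529 counts in the clones. *FOXF2*, between both, had 176, 185 and 176 counts in WT, 562, 520 and 618 in CS16, and 317, 438 and 432 in CS19. It passed the test without reaching the fold cut-off, at a log2 fold change of 1.14 (SE 0.25, edgeR adjusted p = 0.00193). *GMDS*, the protein-coding gene 9909 bases from *FOXC1*, had a log2 fold change of -0.32 that did not pass (edgeR adjusted p = 0.158), and *FOXF2-DT* beside *FOXF2* one of 0.58 (edgeR adjusted p = 0.283). *LINC01394*, the gene nearest *FOXQ1*, had 1 to 5 counts in each library.

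The second group lies at chromosome 16q24 and holds *FOXF1* (chr16:86510527-86515422), *FOXC2* (chr16:86566829-86569728) and *FOXL1* (chr16:86576368-86583478), with 51406 and 6639 bases between them. *FOXF1* is needed in lung mesenchyme and vessels, *FOXC2* in lymphatic valves and in mesoderm, and *FOXL1* in the mesenchyme under the gut epithelium. *FOXF1* had 0, 0 and 1 counts in WT, 144, 108 and 165 in CS16, and 100, 142 and 193 in CS19. Almost silent in WT, it was counted in every library of both clones, 343-fold higher as a ratio of summed counts, with a 95% counting interval of 61.5 to 13582 (edgeR adjusted p = 1.05e-07). *FOXL1* followed the same pattern at a lower level, with 0, 0 and 3 counts in WT, 31, 35 and 31 in CS16, and 48, 39 and 54 in CS19, a ratio of 32.0 with an interval of 10.8 to 156. *FOXC2* was the weakest of the 3, with 0, 1 and 0 counts in WT, 15, 7 and 21 in CS16, and 8, 16 and 21 in CS19, and its ratio of 35.5 had an interval of 6.20 to 1417. These intervals cover counting error only, as do all floors and bounds here. *FENDRR*, the non-coding gene 1428 bases from *FOXF1* on the other strand, had no count in WT and 15 to 52 counts in the clones, at least 8.42-fold higher. Its neighbour ENSG00000270020 rose from 0, 6 and 1 counts in WT to between 10 and 35 counts (log2 fold change 2.64, edgeR adjusted p = 0.00887), and *FLJ30679*, 9530 bases from *FOXC2*, by 1.71 on the log2 scale. *FOXC2-AS1*, which shares 145 bases with *FOXC2* on the other strand, had 0 counts in every library.

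**Figure D3:**
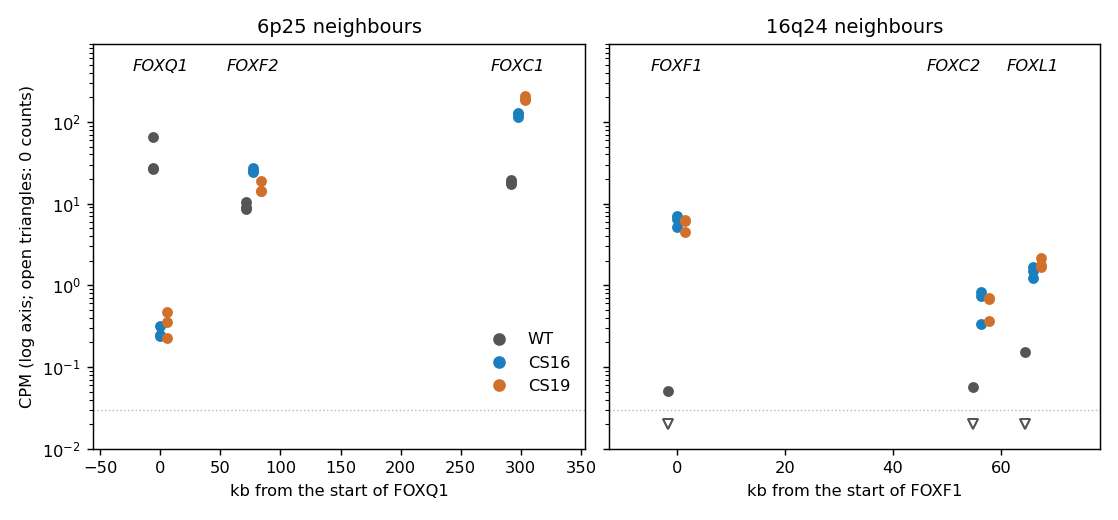
CPM (log axis) of the forkhead neighbours at 6p25 (left) and 16q24 (right) against the distance of each gene's start from that of the first gene, with 1 point for each library, groups set slightly apart, and open triangles for 0 counts. *FOXQ1* lies lower in both clones while *FOXF2* and *FOXC1*, further along, lie higher, and all 3 genes at 16q24 lie higher.

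The remaining developmental members were unlinked to these groups. *FOXD1*, a marker of the renal stroma and of ventral retina, had 0 counts in all WT libraries, 284, 255 and 365 in CS16, and 362, 451 and 490 in CS19. Its rise was at least 97.9-fold (edgeR adjusted p = 4.55e-08), the highest of the 3 bounds. *FOXB1*, a gene of the caudal hypothalamus and neural tube, was also without counts in WT and stood at 5.83, 4.87 and 4.50 CPM in CS16 and 10.7, 14.6 and 12.5 CPM in CS19, at least 56.0-fold higher (edgeR adjusted p = 1.54e-05). Neither promoter window held any of the 3 motifs, and *MESTP2*, the gene inside the *FOXB1* interval, had 0 counts in every library. *FOXD3*, which maintains neural crest and early pluripotent cells, had 6, 15 and 11 counts in WT, 83, 75 and 123 in CS16, and 219, 210 and 275 in CS19, a log2 fold change of 3.57 (SE 0.50, edgeR adjusted p = 6.76e-05). *FOXD3-AS1*, which shares 179 bases with *FOXD3*, rose less, by 1.27 on the log2 scale. Strand was not used, and pairs that overlapped both genes were not counted. *LINC00466* and *MIR6068*, both near *FOXD3*, had at most 2 counts in each library. *FOXD2*, expressed in embryonic kidney mesenchyme, had 15, 7 and 5 counts in WT, 54, 77 and 97 in CS16, and 106, 110 and 126 in CS19, a log2 fold change of 3.07. *FOXD2-AS1*, 3403 bases away, had 124 counts in WT-2 beside 23 and 18 in WT-1 and WT-3, and its log2 fold change of -1.43 was 0.12 without WT-2 (edgeR adjusted p = 0.748). *FOXD4* had 10 to 23 counts in WT and 51 to 89 in the clones, a log2 fold change of 1.53, and is uncertain because near-identical copies of it (*FOXD4L1* to *FOXD4L6*) exist. Around *FOXD1*, *FOXD1-AS1* had no count in any library, *LINC01385* had 6 to 10 counts in WT and 0 to 6 in the clones, and *LINC01386* had 1 count in all. *FOXS1*, a gene of vascular mural cells, had 0, 5 and 1 counts in WT and none in the clones, and no fold is given because both groups were at or under the floor.

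Beside these developmental genes, the marker list of embryonic kidney and nephric progenitors had a summed level of 74.6 to 111.8 CPM in WT, 605 to 658 CPM in CS16 and 440 to 518 CPM in CS19, with 7 of 9 tested markers higher and 2 lower. *IGF2BP1* and *LIN28B*, singled out after their values were seen, made up 473 to 522 CPM of it in CS16 and 312 to 371 CPM in CS19, and the other 8 markers summed to 74.6 to 111.7 CPM in WT, 128 to 136 CPM in CS16 and 128 to 147 CPM in CS19. Its defining gene *PAX2* had 0 counts in WT and 3 to 6 in the clones, and *PAX8* had 202 to 452 counts in WT and 0 to 2 in the clones. The fibroblast list was at 58.4 to 127 CPM in WT, 64.0 to 68.0 CPM in CS16 and 12.9 to 15.8 CPM in CS19, with 2 of 6 tested markers higher and 2 lower. The haematopoietic list was at 7.05 to 8.52 CPM in WT and 2.67 to 3.73 CPM in the clones, with 1 of 3 tested markers higher and 2 lower. The mammary luminal list fell from 1491 to 2193 CPM in WT to between 53.5 and 80.9 CPM in the clones, with 8 of 8 tested markers lower. Their part in the forkhead results was not tested.

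Of the 8 members that are restricted to single organs, only *FOXE1* and *FOXN4* could be tested, and both were called higher, beside 12.6% of all genes. Both had few or no counts in WT and passed the filter on low counts through the clones, so this is a description. *FOXE1*, required for the thyroid, had 1, 3 and 0 counts in WT, 48, 32 and 57 in CS16, and 83, 75 and 86 in CS19. Its log2 fold change was 5.14 (SE 0.60, edgeR adjusted p = 1.65e-05) and 6.44 without WT-2, which held 3 of the 4 WT counts. *FOXN4*, a factor of retinal progenitors and spinal interneurons, had 0 counts in WT, 48, 29 and 60 in CS16, and 88, 84 and 94 in CS19, at least 17.8-fold higher. *PTCSC2*, 146 bases from *FOXE1* on the other strand, stayed at 1 to 9 counts in each library, and *ACACB*, 9752 bases from *FOXN4*, had a log2 fold change of 0.21 (edgeR adjusted p = 0.543) and of 0.82 without WT-2 (edgeR adjusted p = 0.000338). The other six were near silence. *FOXL2*, the ovarian factor, had counts in CS19 alone, at 4, 2 and 4. *FOXE3*, a lens factor, had 1, 9 and 2 counts in WT and 0 to 2 in the clones, and *FOXH1*, the SMAD partner in Nodal signalling, had 4 to 10 in WT, 1 to 3 in CS16 and 3 to 9 in CS19. *FOXI1* of ionocytes, *FOXJ1* of multiciliated cells and *FOXN1* of thymic epithelium had at most 3 counts in each library. The multiciliated list was at 10.4 to 35.9 CPM in WT and 11.0 to 13.2 CPM in the clones, with 2 of 5 tested markers higher and 1 lower.

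All 4 FOXO genes were tested, and 3 of them were higher past the adjusted p, beside 31.1% of all genes. *FOXO1*, the main insulin-responsive member in liver and muscle, had 75, 64 and 79 counts in WT, 409, 443 and 480 in CS16, and 394, 392 and 567 in CS19. The clones were at 20.1 ± 1.02 CPM and 17.8 ± 0.784 CPM (SD, n = 3), and WT was at 3.80 ± 0.221 CPM. The log2 fold change was 2.32 (SE 0.16, edgeR adjusted p = 2.43e-07). Of its exon bases, 22.7% were shared with ENSG00000288542, which had at most 2 counts in each library, and *RLIMP1* inside it had 1 to 3 counts in WT and 5 to 11 in the clones. *FOXO3*, a regulator of stress resistance and apoptosis, rose by 1.20 on the log2 scale (SE 0.12, edgeR adjusted p = 4.53e-06), from 1034, 983 and 921 counts in WT to 2486, 2437 and 2954 in CS16 and 2604, 2839 and 3507 in CS19. *FOXO3B*, a near-identical copy of *FOXO3*, rose 8.48-fold from 48 to 64 counts to 484 to 664, and pairs that fit both genes equally were removed by the mapping filter, so both values are uncertain. *FOXO4*, a smaller FOXO gene on the X chromosome, separated the clones. Its level was 6.51, 6.56 and 5.96 CPM in WT, 81.0, 85.1 and 84.3 CPM in CS16, and 17.6, 17.0 and 16.3 CPM in CS19. CS16 lay above CS19 and CS19 above WT in every library, with log2 fold changes against WT of 3.75 (SE 0.18) and 1.46 (SE 0.19). The direct test of CS16 against CS19 gave 2.29 (SE 0.07, edgeR adjusted p = 3.05e-10), which is 4.92-fold in mean CPM. Next to *FOXO4*, *CXorf65*, ENSG00000285171 and *IL2RG* had at most 1 count in each library. *FOXO6*, expressed mainly in brain, had 13, 97 and 15 counts in WT and 9 to 30 in the clones. Its log2 fold change of -1.65 (edgeR adjusted p = 0.0352) rested on WT-2 and was 0.03 without that library (edgeR adjusted p = 0.950).

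The promoter of *FOXO4* is shown because it was the member that differed most between the clones, and that of *FOXP4* because it carried an E-box. They lie at chrX:71095601-71095900 and chr6:41546131-41546430 (RefSeq, GRCh38.p14, plus strand), with the motif in capitals.
FOXO4: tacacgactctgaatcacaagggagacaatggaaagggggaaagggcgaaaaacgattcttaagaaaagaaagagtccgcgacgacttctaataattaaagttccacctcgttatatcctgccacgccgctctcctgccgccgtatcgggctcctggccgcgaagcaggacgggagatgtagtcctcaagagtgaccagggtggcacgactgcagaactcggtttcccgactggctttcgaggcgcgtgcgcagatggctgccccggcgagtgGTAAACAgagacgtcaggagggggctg
FOXP4: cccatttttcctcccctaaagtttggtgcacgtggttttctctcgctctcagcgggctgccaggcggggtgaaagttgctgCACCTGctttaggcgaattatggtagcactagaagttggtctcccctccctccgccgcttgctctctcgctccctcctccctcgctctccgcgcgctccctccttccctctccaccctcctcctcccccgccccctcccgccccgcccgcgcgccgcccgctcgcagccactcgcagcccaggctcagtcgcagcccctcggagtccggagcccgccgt
The capitals mark a forkhead core that begins at base 24 after the start of *FOXO4*, and an E-box that begins 169 bases before the start of *FOXP4*. RefSeq held 37 such windows for 26 of the 35 members. An E-box was in 8 of the 37 windows (21.6%) and in 20.6% of all 35116 promoters of the same length. Those windows belonged to *FOXD4*, *FOXI1*, *FOXJ2*, *FOXN1*, *FOXO6*, *FOXP1* and *FOXP4*. For members called higher it was in 0 of 11 windows, and for those called lower in 1 of 2. Of the members called higher, *FOXC2*, *FOXF1* and *FOXL1* had no window. The forkhead core was in 2 windows (5.41%, beside 3.42% of all promoters), those of *FOXO4* and *FOXP1*. The cell cycle letters were in 5 (13.5%, beside 15.2%). Members had G and C rich promoters, with a median of 68% and 28 CpG sites for each window, beside 58.7% and 14 over all promoters. These matches are a description of letters and not of binding.

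The 4 FOXP genes went different ways. *FOXP2*, known for its role in speech and in neuronal circuits, had 57, 21 and 33 counts in WT, 776, 866 and 987 in CS16, and 784, 797 and 1183 in CS19. The groups were far apart, and *FOXP2* rose by 4.31 on the log2 scale (SE 0.27, edgeR adjusted p = 7.42e-08), or 19.9-fold in mean CPM. Small genes inside it, *RPL36P13* and ENSG00000224595, had at most 1 count in WT and 2 to 13 in the clones, and ENSG00000282859, *RNA5SP238* and *MIR3666* had 0 to 8 counts. *FOXP4*, expressed in lung and gut epithelium, fell, but from a WT level that rested largely on WT-2. It had 745, 7512 and 613 counts in WT, 166, 103 and 184 in CS16, and 173, 225 and 234 in CS19. WT-2 held 12.6 times the mean CPM of the other WT libraries, and the log2 fold change of -4.44 (edgeR adjusted p = 0.000127) became -2.17 without WT-2 (edgeR adjusted p = 1.16e-06). DESeq2 gave no adjusted p for *FOXP4*. *FOXP4-AS1*, inside the *FOXP4* interval on the other strand, was at 4.93, 6.73 and 4.98 CPM in WT, highest in WT-2 but by far less than *FOXP4*, and at 0.811 to 1.26 CPM in the clones (log2 fold change -2.41, edgeR adjusted p = 1.66e-06). *MIR4641*, also inside, had 2, 9 and 2 counts in WT and none in the clones. *FOXP1*, a factor of lymphocytes, heart and lung, had 654 to 1052 counts in WT, 623 to 784 in CS16 and 873 to 1311 in CS19, with a log2 fold change of -0.29 that did not pass (edgeR adjusted p = 0.163). *FOXP3*, which defines regulatory T cells, had 4 to 21 counts in every library, and 22.4% of its exon bases were shared with other genes.

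None of the 6 broadly expressed members or *FOXM1* was called. In *SNAI1*-KO against WT none of the 6 was higher past the test. *FOXJ2*, *FOXJ3*, *FOXK2* and *FOXN3* were lower past it, at log2 fold changes of -1.38, -0.38, -0.50 and -0.85, beside 32.6% of all genes lower. *FOXN3*, linked to cell cycle checkpoints, kept its difference without WT-2 at -0.64 and had 1567 to 2248 counts in WT and 1139 to 1523 in the clones. *FOXJ3*, which acts in muscle and germ cells, had 1072 to 1362 counts in WT and 1004 to 1589 in the clones, which in CPM was 65.4 ± 4.40 for WT, 48.7 ± 0.827 for CS16 and 51.7 ± 1.66 for CS19 (SD, n = 3). *FOXJ2* had 290, 795 and 206 counts in WT, and its difference shrank to -0.47 without WT-2 (edgeR adjusted p = 0.0317). *FOXK2*, a glycolysis and autophagy regulator like *FOXK1*, no longer passed without WT-2, at -0.18 (edgeR adjusted p = 0.231), nor with DESeq2 (adjusted p = 0.0692), upper-quartile factors (edgeR adjusted p = 0.0718) or no filter on low counts (edgeR adjusted p = 0.138). *FOXJ3* did not pass with no filter (edgeR adjusted p = 0.223) or without WT-3 (edgeR adjusted p = 0.0624). *FOXK1* had 2436, 6254 and 2350 counts in WT, 2860, 2864 and 3534 in CS16, and 2608, 2727 and 3573 in CS19. Without WT-2 its log2 fold change moved from -0.63 to 0.09, and neither value passed. In CS16 against WT it was -0.49 (edgeR adjusted p = 0.363) and, without WT-2, 0.21, which passed (edgeR adjusted p = 0.0459). *FOXN2* had 1156, 427 and 1188 counts in WT, where WT-2 was the lowest, and its log2 fold change went from -0.06 to -0.38 without WT-2 (edgeR adjusted p = 0.0113). *FOXP1* likewise reached -0.41 without WT-2 (edgeR adjusted p = 0.0373).

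*FOXM1*, which switches on mitotic genes, had 1931, 3898 and 2075 counts in WT, 1739, 1396 and 2135 in CS16, and 1582, 2314 and 2248 in CS19. It was lower by 0.81 on the log2 scale (SE 0.25, edgeR adjusted p = 0.0124), but at -0.33 without WT-2 it no longer passed (edgeR adjusted p = 0.0545). In either separate clone comparison it did not pass with all WT libraries, at -0.81 in CS16 and -0.75 in CS19. It did pass there without WT-2, at the smaller values of -0.36 in CS16 (edgeR adjusted p = 0.0114) and -0.28 in CS19 (edgeR adjusted p = 0.0448). Of its exon bases, 15.9% were shared with *ITFG2*, and pairs that overlapped both genes were not counted.

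Leaving out WT-2 changed no call among members tested both with and without it. In *SNAI1*-KO against WT it moved 7 log2 fold changes by over 1.5-fold and changed the side of the adjusted p for 5 members. In CS16 against WT it moved 5 and changed 5 sides, and in CS19 against WT it moved 5 and changed 3 sides. *FOXC2*, which the main fit did not test in either clone with all WT libraries, was tested in both without WT-2. It passed there (edgeR adjusted p = 0.000278 in CS16 and 0.000127 in CS19). WT-1 and WT-3 had 0 counts of *FOXC2*, so its fitted log2 fold change of 6.78 in each clone is not a measured fold. Its calls without WT-2 rest on that value. With all WT libraries, where WT held 0, 1 and 0 counts, DESeq2 called *FOXC2* in both clones. The log2 fold change was 5.15 in CS16 (DESeq2 adjusted p = 0.00121) and 5.02 in CS19 (DESeq2 adjusted p = 0.00153). The fit with no filter on low counts and the shared fit also called it in both. The *FOXP4* value was -4.58 in CS16 and -4.26 in CS19 with WT-2, and -2.33 and -2.00 without it, the last lying at the fold cut-off.

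CS16 and CS19 were then compared directly, which leaves the WT libraries out. Of 26 members tested, *FOXO4* alone was called, beside 1.13% of all 17538 genes. Without the fold cut-off, 3 members were higher in CS16 (14.7% of all genes) and 8 were lower (12.7% of all genes). The higher ones were *FOXO4*, *FOXF2* at 0.69 (SE 0.11) and *FOXK1* at 0.23 (SE 0.06) on the log2 scale. The lower ones included several of the genes that were silent or weak in WT. *FOXB1* was 2.48-fold lower in CS16 than in CS19 (log2 fold change -1.32, edgeR adjusted p = 1.50e-05), *FOXD3* 2.24-fold lower (-1.16, edgeR adjusted p = 5.21e-05) and *FOXC1* 1.60-fold lower (-0.68, edgeR adjusted p = 8.72e-06). *FOXN4* at -0.80, *FOXE1* at -0.67, *FOXP1* at -0.43, *FOXD1* at -0.36 and *FOXN2* at -0.24 also passed. The 16q24 genes did not pass, with log2 fold changes of 0.13 for *FOXF1* (SE 0.16), 0.12 for *FOXC2* (SE 0.41) and -0.36 for *FOXL1* (SE 0.24). *FOXO3* had 119 CPM in both clones, and *FOXP2* had 39.5 CPM in CS16 and 36.3 CPM in CS19. Of the 11 members past the adjusted p, 4 were left with 1 spread estimated over all 3 groups and 7 without CS19-1.

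To compare the genes with each other, counts were scaled by exon length to TPM, which sums to the same total in each library. In WT the highest mean TPM were those of *FOXM1* (94.2), *FOXP4* (87.7), *FOXK1* (50.3), *FOXQ1* (49.4) and *FOXK2* (38.2). WT-2 was the highest WT library for all 5, with *FOXM1* ranging from 59.7 to 156 TPM and *FOXP4* from 13.5 to 230 TPM, so that neighbours in this order overlapped. Over WT-1 and WT-3 alone the order was *FOXM1* (63.4), *FOXN2* (33.3), *FOXQ1* (31.1), *FOXJ3* (30.3) and *FOXK2* (29.1), and *FOXP4* ranked 9 at 16.6 TPM. In CS16 *FOXC1* ranked first at 96.6 ± 18.4 TPM, then *FOXO4* at 68.6 ± 7.14, *FOXM1* at 50.6 ± 12.4 and *FOXO3* at 48.4 ± 7.40 TPM (SD, n = 3). The ranges of *FOXC1* and *FOXO4* did not overlap there, whereas *FOXM1* and *FOXO3* overlapped. In CS19 *FOXC1* was again first, at 150 ± 20.3 TPM, followed by *FOXM1* at 51.1 ± 14.2 and *FOXO3* at 47.1 ± 6.21 TPM, and *FOXO4* was at 13.6 ± 1.70 TPM. *FOXC1* ranked 10 in WT at 15.0 ± 2.53 TPM. The genes that were silent in WT reached moderate levels, *FOXD1* at 14.8 TPM in CS16 and 18.5 TPM in CS19, *FOXB1* at 4.42 and 10.6 TPM and *FOXN4* at 1.84 and 3.09 TPM. *FOXC2* stayed at 0.702 and 0.607 TPM.

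**Figure D4:**
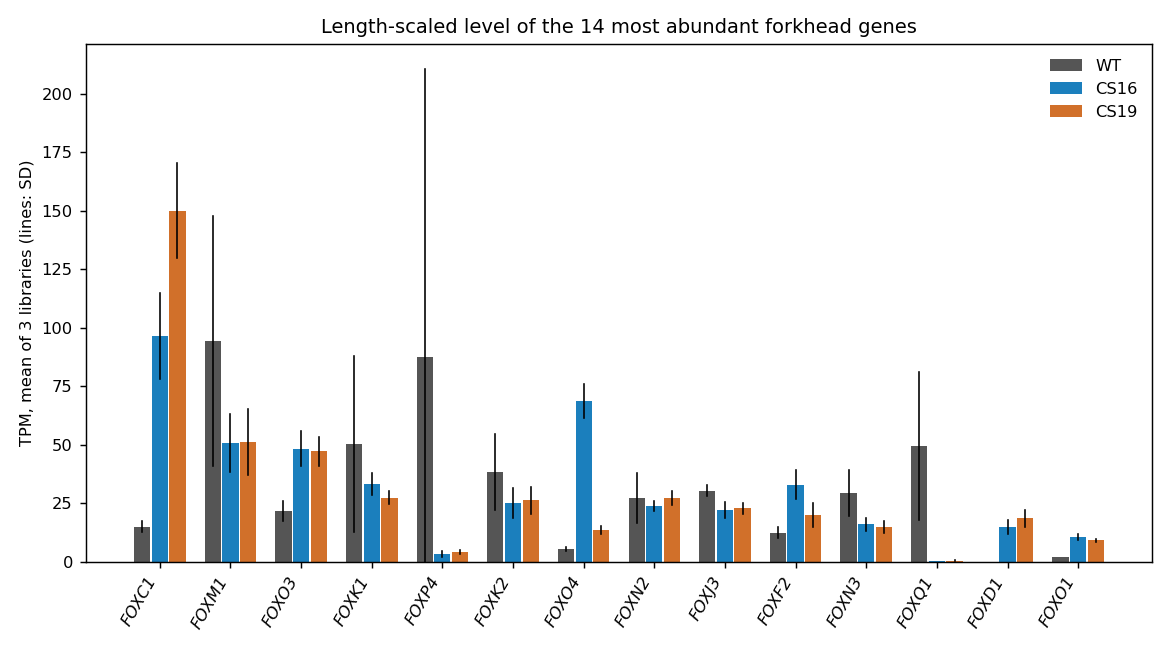
Mean TPM of the 14 forkhead genes with the highest mean over all libraries, by group, with lines for the SD of 3 libraries. *FOXC1* is the highest bar in CS16 (96.6) and CS19 (150), *FOXO4* stands out in CS16 (68.6), and the tall WT bar of *FOXP4* (87.7) has an SD larger than its mean.

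The genes that FOXO factors act on or answer to were then described, from lists chosen with earlier results of these data known. Of 30 FOXO targets tested, 8 were higher and 14 lower past the adjusted p, with a median log2 fold change of -0.45. The sestrin genes *SESN3* and *SESN1*, which restrain mTORC1 under stress, rose by 3.19 and 3.03 on the log2 scale. In contrast, *TNFSF10*, a death ligand, fell by 10.12 and *BCL6*, a transcriptional repressor that acts in the germinal centre, fell by 2.61. Of 32 genes that act on FOXO proteins, such as kinases, phosphatases and binding proteins, 7 were higher and 15 lower, with a median of -0.37. *SKP2*, a ubiquitin ligase subunit that degrades FOXO1, rose by 1.61 and *PRKAA2*, an AMPK subunit, by 2.04, while *SFN*, a 14-3-3 protein, fell by 9.13 and *PIK3CD*, a PI3K subunit, fell by 2.61. Over all genes 31.1% were higher and 32.6% lower.

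Beside the same shares of all genes (31.1% higher, 32.6% lower), 4 of 30 FOXM1 targets were higher and 13 lower, with a median of -0.29. *CDC25A* and *SKP2* were higher, at 1.60 and 1.61, and *KIF2C* and *CENPF*, both of the mitotic spindle and kinetochore, were lower, at -1.37 and -0.91. Among 17 activating and repressing partners of FOXM1, 7 were higher and 5 lower (median 0.37), with *RBBP4* at 1.43, *LIN52* at 1.57, *CCND3* at -2.12 and *E2F1* at -0.96. For the FOXP factors, 11 of 20 partners, including subunits of the NuRD repressor complex, were higher and 6 lower (median 0.50). *CNTNAP2*, a neurexin-family gene known as a FOXP2 target, rose from 2, 0 and 2 counts in WT to between 420 and 623 in the clones (log2 fold change 8.27), and *BCL11A* rose by 5.18, whereas *SRPX2*, another gene known as a FOXP2 target, fell by 5.31 and *NFATC2* fell by 5.05. For the FOXK factors, 2 of 14 partners were higher and 7 lower (median -0.75). *ASXL3* had 0, 2 and 0 counts in WT and 368 to 639 in the clones and *KDM1B* rose by 0.54, while *ASXL1* fell by 1.96 and *DVL1* fell by 1.74.

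The remaining lists are likewise read beside 31.1% of all genes higher and 32.6% lower. Of 21 mesodermal neighbours of the FOXC, FOXF and FOXD genes, 12 were higher and 5 lower, with a median of 1.90. *TBX18* rose by 7.75 on the log2 scale, while *BMP4* fell by 5.36 and the imprinted gene *MEST* fell by 6.75. Of 12 organ partners of FOXL2, FOXE and FOXN factors, 6 were higher and 3 lower (median 0.92). The transcription factor gene *MAF* rose from 1, 0 and 0 counts in WT to between 727 and 2798 in the clones, *NR5A2* rose by 4.12, and *FST* fell by 6.33. *PAX8*, a partner of *FOXE1* in the thyroid, fell from 244, 452 and 202 counts to at most 2. Of 11 FOXH1 partners and Nodal targets, 7 were higher and 3 lower (median 1.35), with *ACVR2B* at 1.93, *SMAD3* at -2.98 and *DRAP1* at -2.15. Of 24 ciliary genes and regulators that FOXJ1 is known to act with, 9 were higher and 6 lower (median -0.12), counts near those shares, with *CFAP43* at 1.46, *MYB* at 2.13, *DNAH5* at -4.67 and *CFAP46* at -4.79, while *FOXJ1* itself stayed at 0 to 3 counts. Of 11 tested genes in the list of transcripts named for or derived from a forkhead gene, 5 were higher and 3 lower (median 0.58), and *FOXO3B* and *FOXP4-AS1* are given beside their members above.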

How the data were processed

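Total RNA depleted of ribosomal RNA was sequenced as stranded paired ends. The authors trimmed reads with Trimmomatic 0.36, mapped them to GRCh38.p13 with STAR 2.7.2b and counted pairs per gencode 38 gene with featureCounts of Subread 2.0.0, at a mapping quality of at least 30 and without the strand option. The deposited values are raw counts, 1 table for each library. Pairs that overlapped more than 1 gene were not counted.

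Gene symbols were matched by identifier to a gencode 44 table. Counts were filtered (filterByExpr), scaled by TMM and fitted over all genes with the quasi-likelihood test of edgeR 4.0.16 (limma 3.58.1, R 4.3.3), with Benjamini-Hochberg adjustment and only the groups compared in each of 4 fits. CPM used effective library sizes, and TPM used exon lengths in the tables. Alternatives were DESeq2 1.42.0, RLE and upper-quartile factors, other filters and fold cut-off, a shared fit, a replicate block and leaving out each library. The main edgeR fit and DESeq2 were tested on simulated data for each comparison. The changed genes there were well counted and all genes had the same spread. Genes near the floor and the spread of WT-2 were thus not covered. Summaries and plots used scipy 1.17.1, numpy 2.4.6, matplotlib 3.10.9 and pandas 2.3.3 under Python 3.11.15.

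The members and lists were chosen with earlier results of these data known. Counts (CPM for *FOXB1* and *FOXO4*) in every library are given for members called in any comparison and the 5 with the highest mean TPM. From each other list, the 2 higher and 2 lower genes with the smallest p past the threshold are named, as are genes within 10 kb of a called member. Some genes that this rule names are not reported here.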

Additional observations from a re-analysis of the deposited data

Results flagged for a closer look

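The clones differed from each other, in the direct edgeR test over 3 libraries each, for 11 forkhead genes, and none of these differences was explained. Higher in CS16, beside 14.7% of all genes, were *FOXO4* (log2 fold change 2.29), *FOXF2* (0.69) and *FOXK1* (0.23). Lower in CS16, beside 12.7% of all genes, were *FOXB1* (-1.32), *FOXD3* (-1.16), *FOXN4* (-0.80), *FOXC1* (-0.68), *FOXE1* (-0.67), *FOXP1* (-0.43), *FOXD1* (-0.36) and *FOXN2* (-0.24). Of these, *FOXD1*, *FOXE1* and *FOXN2* did not pass with DESeq2 (DESeq2 adjusted p = 0.0538, 0.0787 and 0.0866). In the shared fit these genes and *FOXF2*, *FOXK1*, *FOXN4* and *FOXP1* did not pass. Each clone is 1 line, so that a difference between the lines cannot be told apart from one between single cells they were grown from. Over the 6 libraries labelled *SNAI1*-KO, 28 members were checked for a library far from the others and none stood apart, where chance gives about 1 in 20.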

How the results depend on the processing

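Members called numbered 14 to 20 in *SNAI1*-KO against WT, 14 to 18 in CS16 against WT and 13 to 16 in CS19 against WT over the other settings, and 15 to 16, 14 to 16 and 13 to 14 without 1 library. Genes called over the whole table went from 5272, 4990 and 198 (*SNAI1*-KO against WT, CS19 against WT, CS16 against CS19) to 8662, 7513 and 352 with no filter on low counts. With a log2 fold cut-off of 1 they were 9251, 8309 and 833, and 8567 in place of 5045 in CS16 against WT. That cut-off called 3 members in CS16 against CS19 in place of 1. Members past the adjusted p there went from 11 to 4 in the shared fit of 3 groups, 7 with the replicate block and 7 to 9 without 1 library. Same-numbered libraries did not deviate together (correlations from -0.21 to 0.19), so the numbers gave no sign of pairing. With 3 libraries in each group, this check cannot exclude a shared preparation.

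Of the values of single members, 1343 kept direction and side of the threshold, 61 lost the threshold, 25 gained it and 25 changed sign, and the cause was not tested. Leaving out 1 library at a time in *SNAI1*-KO against WT, *FOXK1* ranged from -0.89 (without WT-1) to 0.089 (without WT-2), *FOXN2* from -0.38 (without WT-2) to 0.18 (without WT-3), *FOXO6* from -2.10 (without WT-1) to 0.035 (without WT-2) and *FOXP3* from -0.66 (without WT-3) to 0.94 (without WT-2). *FOXN2* there was at 0.0054 with upper-quartile factors and 0.040 with no filter. In CS16 against WT, *FOXK1* ranged from -0.75 to 0.21 and *FOXN2* from -0.50 to 0.073. In CS19 against WT, *FOXN2* ranged from -0.24 to 0.32, *FOXO6* from -1.71 to 0.43 and *FOXP1* from -0.19 to 0.044, and *FOXP1* was at 0.0055 with no filter. In CS16 against CS19, *FOXC2* ranged from -0.14 to 0.42, *FOXK2* from -0.20 to 0.0015, *FOXM1* from -0.13 to 0.12 and *FOXO3* from -0.026 to 0.025, with *FOXO3* at 0.012 in DESeq2 and 0.0040 with RLE factors. Members at the floor in WT are limited by depth, and their folds are bounds or carry wide counting intervals.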

Other observations

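Forkhead genes outside the 35 members were also counted, from a list of 15 of which 6 were tested, with 4 higher and 2 lower in *SNAI1*-KO against WT. Over all genes 31.1% were higher and 32.6% lower past the adjusted p. *FOXI3*, of pharyngeal and ectodermal placodes, had no count in WT, 102 to 123 in CS16, and 213 to 287 in CS19, at least 49.2-fold higher. *FOXA1*, the pioneer factor of luminal breast cells, had 0, 0 and 2 counts in WT, 63, 86 and 72 in CS16, and 336, 419 and 494 in CS19. *FOXA2*, of endoderm, went the other way, with 245, 423 and 282 counts in WT and 1 count over the 6 libraries labelled *SNAI1*-KO. *FOXD4L1*, a near-identical copy of *FOXD4*, was lower by 1.18 on the log2 scale (edgeR adjusted p = 0.0139) while *FOXD4* was higher. Pairs that fit both copies equally were removed by the mapping filter, so both values are uncertain.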
